A study of Arabidopsis thaliana with 16 samples.

Results

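The genes described are the nuclear genes for the 2 photosystems, their light-harvesting antennae and the small subunit of Rubisco in *Arabidopsis thaliana*, read in germinating seeds labelled as the *sweet1* mutant. They were chosen by locus code, with earlier results of these data known, and are 47 of the 27655 genes in the files. The 47 are 6 LHCA genes (antenna of photosystem I), 9 genes for LHCB1 to LHCB3 (the trimeric antenna of photosystem II, LHCII), 6 genes for LHCB4 to LHCB7 (minor LHCB, the antenna proteins that stay monomers), 12 PSA genes (subunits of photosystem I), 10 PSB genes (subunits of photosystem II) and 4 RBCS genes (Rubisco small subunit). All seeds were labelled *sweet1*, a single T-DNA insertion line in the Col-0 background that affects a Glc transporter, so what the groups show holds for seeds of that label; WT libraries were not analysed here. Whole seeds were imbibed for 3 d at 4°C, kept on ½ MS in constant light at 22°C, and moved at 24 h after imbibition to liquid ½ MS for 6 h. The liquid held no addition (control), 60 mM glucose (Glc), 5 µM abscisic acid (ABA) or both (ABA + Glc). Each group has 4 libraries that the labels call biological replicates, 16 in all; whether they come from separate seed lots is not stated, so p-values measure the spread between these libraries.

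Photosystems I and II are membrane complexes of chloroplasts that use light to move electrons from water to ferredoxin. Chloroplast genes encode their reaction centres, whereas nuclear genes encode the chlorophyll-binding antenna proteins and a part of the other subunits. Rubisco fixes CO2 and joins a large subunit made in the chloroplast with a small subunit made from nuclear RBCS genes. In a germinating seed these nuclear genes come on as the embryo greens, and in seedlings sugars and ABA are known to lower the transcript levels of many of them.

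The deposited values carry the unit TPM (a transcript level scaled by transcript length and by library), although they summed to 951008 to 1053766 per library. With no read counts, depth is unknown, and only the scatter of replicates shows the precision. The 47 genes together made up 0.298% to 0.373% of a library's sum. The study removed outlier libraries; the 14 in its gene table (4, 4, 3 and 3 per group, without replicate 3 of ABA and of ABA + Glc) were used for tests here, with the result over all 16 given where the call of 1 of the 47 genes against the control differs. ABA + Glc replicate 3, one of the 2 left out, stood apart in these genes: its median log2 difference from the control mean over the tested genes was -0.62, against -0.35 to -0.28 in the other 3 ABA + Glc libraries. *SWEET1* itself was listed at 8.29 to 17.6 TPM in the 16 libraries labelled *sweet1*. The study describes the line as a null because RT-PCR of mutant seeds detected no transcript, whereas transcript was listed here in every library. No WT level was set beside these values. With a single TPM for each gene, the side of the insertion that reads came from is unknown, so the genotype could not be checked. Markers of other seed tissues were present: the summed level of 5 endosperm markers was 1325 to 1628 TPM in control, 1615 to 1702 in Glc, 1396 to 1657 in ABA and 1628 to 1815 in ABA + Glc libraries. Most of that sum was 1 gene, *EXPA2*, at 1146 to 1489 TPM over the 16 libraries. Another of the 5 endosperm markers, *MAN7*, rose in each treatment, to 1.7, 2.83 and 3.07 times the control, and was named after its values were seen. Of 5 seed coat markers, *TT10*, *BAN* and *TT2* were at 0 in all 16 libraries and the sum of the list stayed between 0.04 and 0.55 TPM. The sum of 3 embryo epidermis markers was 412 to 459.6 TPM in control, 424 to 434 in Glc, 335 to 367 in ABA and 326 to 388 in ABA + Glc libraries, and 1 of the 3, *PDF1*, fell under ABA and under ABA + Glc, at -0.43 and -0.53 on the log2 scale. *PDF1* made up most of the epidermis sum. Mean levels in control, ABA and ABA + Glc were 34.5, 33.6 and 31.7 TPM for *ATML1* and 86.1, 87.2 and 89.5 TPM for *PDF2*. The part of these tissues in the results was not tested, and in RNA of whole seeds fewer cells of a type and less RNA per cell cannot be told apart.

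The 250 bases before the annotated gene start are shown for a small subunit gene that fell in all treatments, for the most abundant one, which did not pass the test, and for the LHCA gene with the largest fall and the antenna gene with the largest rise under ABA, to set genes with unlike values side by side. Sequences are from RefSeq, build TAIR10.1, 5′ to 3′ on the strand of the gene. Capitals mark the G-box CACGTG and the I-box core GATAAG, the latter written CTTATC where it lies on the other strand; both are short words long known from promoters of light-regulated genes.
RBCS2B, chr5:15382072-15382321, minus strand: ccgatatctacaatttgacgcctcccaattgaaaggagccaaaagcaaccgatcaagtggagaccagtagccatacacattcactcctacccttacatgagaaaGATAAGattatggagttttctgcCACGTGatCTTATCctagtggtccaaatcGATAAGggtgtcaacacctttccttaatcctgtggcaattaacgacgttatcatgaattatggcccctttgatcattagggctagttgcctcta
RBCS1A, chr1:25049668-25049917, minus strand: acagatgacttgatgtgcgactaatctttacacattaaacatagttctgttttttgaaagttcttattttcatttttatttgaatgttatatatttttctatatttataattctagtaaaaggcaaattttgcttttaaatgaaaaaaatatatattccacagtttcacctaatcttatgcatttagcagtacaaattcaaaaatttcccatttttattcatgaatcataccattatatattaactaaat
LHCA1, chr3:20341177-20341426, minus strand: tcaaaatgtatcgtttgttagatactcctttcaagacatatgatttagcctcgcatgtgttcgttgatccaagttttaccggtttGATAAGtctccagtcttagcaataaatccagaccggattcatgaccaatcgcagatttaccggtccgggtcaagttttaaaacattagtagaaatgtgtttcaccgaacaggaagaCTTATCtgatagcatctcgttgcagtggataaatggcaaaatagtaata
LHCB4.1, chr5:208616-208865, plus strand: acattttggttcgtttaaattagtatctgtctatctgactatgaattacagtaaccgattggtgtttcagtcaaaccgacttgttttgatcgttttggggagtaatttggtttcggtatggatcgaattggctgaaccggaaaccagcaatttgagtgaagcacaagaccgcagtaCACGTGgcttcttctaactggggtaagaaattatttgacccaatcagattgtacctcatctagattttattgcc
The window of *RBCS2B* held 1 G-box between I-box cores, 3 in all, that of *LHCA1* held 2 I-box cores, that of *LHCB4.1* held 1 G-box, and that of *RBCS1A* held neither word. The windows of *RBCS1B* and *RBCS3B*, which fell like *RBCS2B*, held neither word as well, as did that of *RBCS1A*, which did not pass. The *RBCS1B* window ended in gataa right at the annotated start, so a word that crosses this start was not counted. A missing word in these windows is therefore not read as missing from the promoter. Over all 47 windows, searched on both strands, CACGTG was found in 10 (21.3%), against 6.5% of the 27443 windows of annotated protein-coding nuclear genes. Its inner word ACGTG, which every CACGTG contains, was in 19 windows (40.4%, against 22.9% of all). GATAAG was in 10 (21.3%, against 12.3%), CCAATC in 11 (23.4%, against 10.2%) and TATCCA in 16 (34.0%, against 13.6%). TATCCA is known from sugar-regulated amylase promoters of rice. Of the genes that fell under ABA, 10 of 18 held TATCCA, 6 GATAAG, 4 CCAATC, 3 CACGTG and 6 ACGTG. Among the 21 genes that did not pass under ABA, the counts were 5, 2, 2, 5 and 8 in the same order. Among the 3 genes that rose under ABA they were 0, 1, 2, 1 and 2. For TATCCA under Glc the counts were 4 of 13 that fell and 11 of 29 that did not pass. Under ABA + Glc those for TATCCA were 11 of 20 and 4 of 22. No test was made of these shares. These matches are a description of letters in a window set by the annotated gene start, and another start site would give another window.

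Levels in the control spanned more than 3 orders of magnitude within a single pathway. *RBCS1A* held 2041 ± 22.8 TPM (SD, n = 4), by far the highest, and alone made up 55.8% to 57.1% of the sum of the 47 genes in control libraries. *RBCS3B* followed with 302 ± 5.7 TPM (SD, n = 4), then the small photosystem II subunits *PSBX* with 184 ± 8.6 TPM (SD, n = 4) and *PSBR* with 175 ± 4 TPM (SD, n = 4). The difference between *PSBX* and *PSBR* was about the size of their spread. In total 1 gene was above 1000 TPM, 4 between 100 and 1000, 22 between 10 and 100, 14 between 1 and 10, and 6 below 1, 1 of them (*LHCB1.4*) listed at 0 in every library. In the antenna of photosystem I, *LHCA5* (54.3 ± 1.85 TPM, SD, n = 4) and *LHCA4* (50.1 ± 2.95 TPM, SD, n = 4) stood well above *LHCA3* (10.8 ± 1.67 TPM, SD, n = 4), *LHCA1* (7.71 ± 1.5 TPM, SD, n = 4), *LHCA2* (4.72 ± 0.419 TPM, SD, n = 4) and *LHCA6* (1.06 ± 0.366 TPM, SD, n = 4). LHCA4 pairs with LHCA1 in the antenna belt of photosystem I. In LHCII, *LHCB1.3* (30.8 ± 2.74 TPM, SD, n = 4), *LHCB1.5* (12.9 ± 2.22 TPM, SD, n = 4) and *LHCB3* (11.5 ± 0.588 TPM, SD, n = 4) held most of the family's transcripts. *LHCB1.1* was at 0.48 to 0.65 TPM in the control, and *LHCB2.1*, *LHCB2.2* and *LHCB2.3* were at 0.33 TPM or below there. These 4 genes and *LHCB1.4* were too low for the filter (above 0.5 TPM in 50% or more of the libraries), which left 42 of the 47 for tests.

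**Figure D1:**
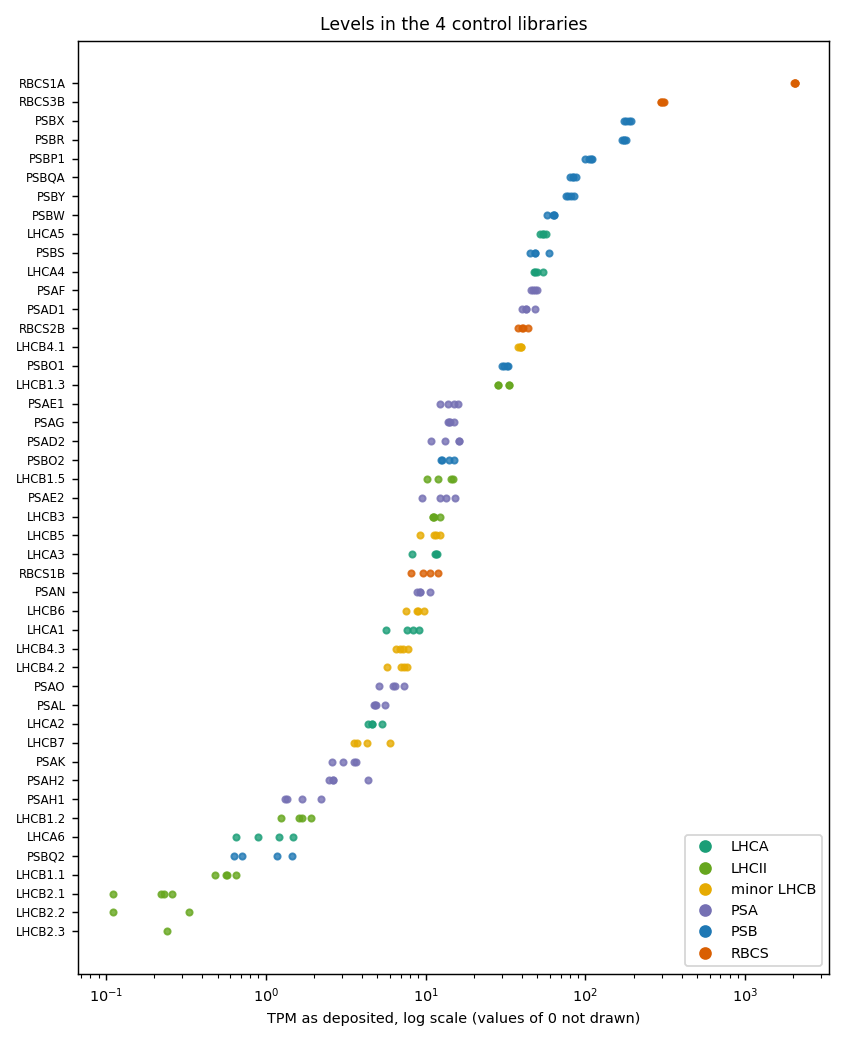
Level of each gene in the 4 control libraries (x axis, TPM as deposited, log scale), ordered by the control mean and coloured by gene group; values of 0 and *LHCB1.4*, listed at 0 in every library, are not drawn. *RBCS1A* lies at about 2041 TPM, and the 3 *LHCB2* genes lie at or below 0.33 TPM.

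Copies with shared sequence limit how sharply single genes can be read. The transcripts of *LHCB1.1*, *LHCB1.2* and *LHCB1.3* share 25.1% to 32.1% of their 31-base words with another gene, *LHCB1.4* and *LHCB1.5* 23.5% and 29.5%, *LHCB2.1* and *LHCB2.2* 31.2% and 39.4%, and *RBCS1B*, *RBCS2B* and *RBCS3B* 18.9%, 37.1% and 20.7%, so reads could be split between copies. For that reason sums over copies are given as well. *LHCA2* shares 15.1% of its words, most of them with AT5G28450, a gene outside the 47. No sum was formed for that pair. The strand setting of the read assignment was not stated, and 16 of the 47 genes overlap a gene on the other strand. The longest overlap is 1045 bases for *LHCB1.5*, whose whole annotated length is covered by a gene for a long noncoding RNA. It is 788 bases for *PSAH1*, 595 for *LHCB2.3*, 479 for *PSAG*, 436 for *PSAE1* and 358 for *LHCB6*. The values of all 16 genes are uncertain to the extent of their overlap.

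Does each treatment move these genes together? A gene passed when limma's moderated test gave a Benjamini-Hochberg adjusted p under 0.05 over the 17498 genes tested and a log2 fold change of 0.289 (1.22-fold) or more in either direction, on log2(TPM + 0.5), which understates changes of low genes. With Glc, 13 of the 42 tested genes fell and 0 rose, where 2.95% of all tested genes fell and 1.14% rose. With ABA 18 fell and 3 rose, against 13.3% and 10.4% of all tested genes. With ABA + Glc 20 fell and 0 rose, against 10.1% and 6.95%. The median log2 fold change was -0.30 under Glc, -0.30 under ABA and -0.33 under ABA + Glc, whereas over all genes tested it was 0.00 in each. At an unadjusted p under 0.05, 0 genes were higher with Glc and 1 was with ABA + Glc (*LHCB4.1*). Over all 16 libraries the falls were 8, 19 and 22, so that the Glc count rests on the 14 libraries; *LHCA2*, *PSAK*, *PSBO2*, *PSBQA* and *PSBX* passed with Glc in the 14 but not in the 16, with log2 fold changes that were the same in both fits and adjusted p of 0.0505 to 0.0775 over 16. The 3 treatments share their control libraries, so the counts are not independent of each other. Since the list was chosen with earlier results of these data known, the counts beside the shares of all tested genes are a description and no test.

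By treatment pattern, 11 genes fell in all 3 treatments: *LHCA2*, *LHCB1.3*, *LHCB1.5*, *LHCB3*, *PSAD1*, *PSAK*, *PSBQA*, *PSBS*, *RBCS1B*, *RBCS2B* and *RBCS3B*. A further 6 passed under ABA and under ABA + Glc but not under Glc, namely *LHCA1*, *LHCA3*, *LHCB5*, *LHCB6*, *PSAF* and *PSBY*. Under Glc alone the falls of *PSBO2* and *PSBX* passed, under ABA alone that of *PSAE1*, and under ABA + Glc alone those of *PSAE2*, *PSAG* and *PSBO1*. The 3 rises under ABA were those of *LHCB4.1*, *LHCB4.2* and *PSAH1*. No treatment moved the remaining 16 past the test. A gene that passed in one treatment and not in another is not thereby shown to differ between them.

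**Figure D2:**
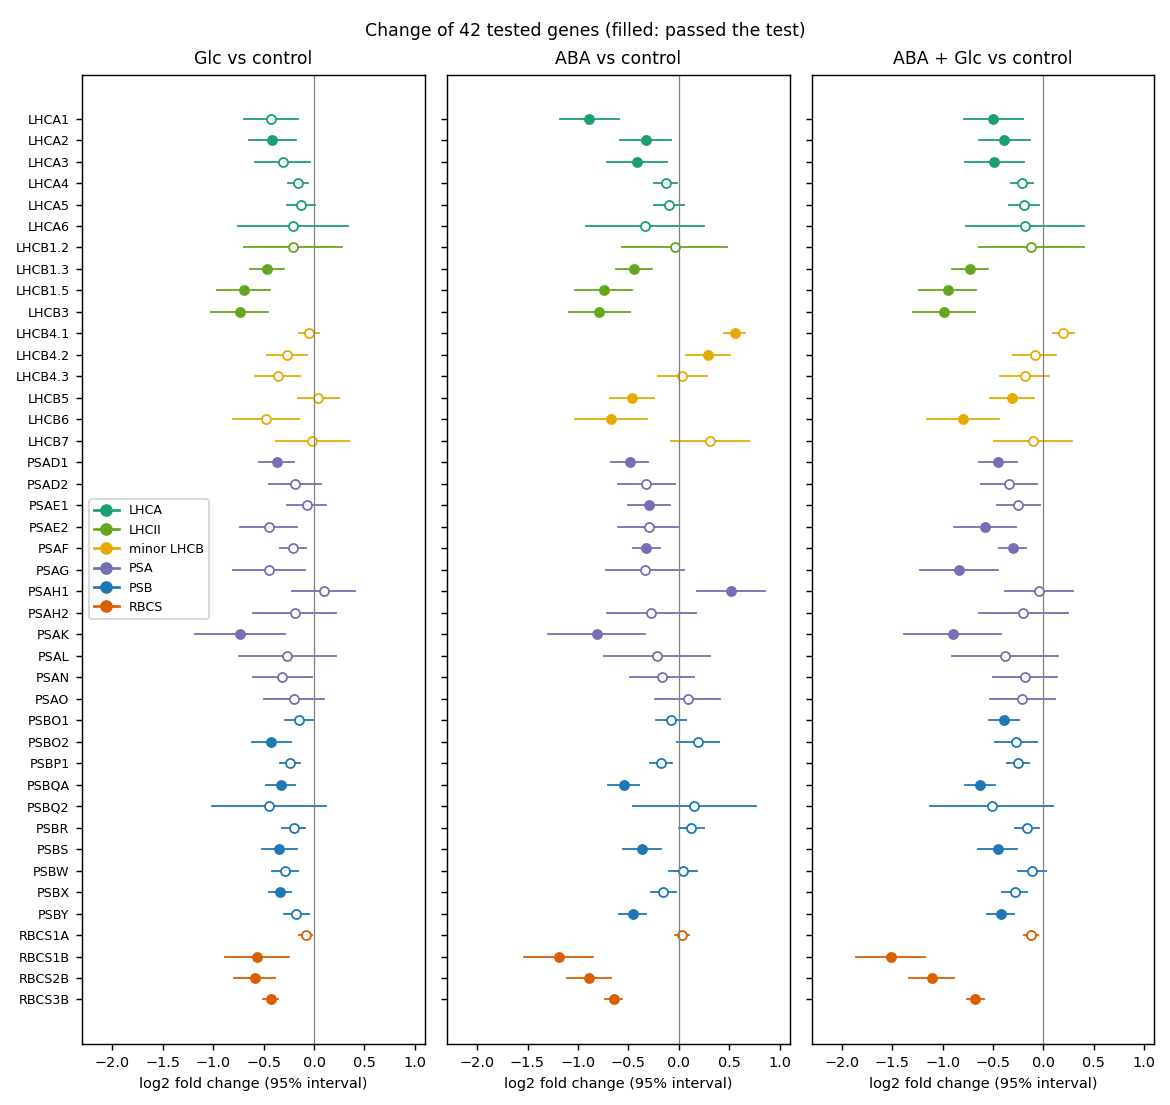
Log2 fold change against the control (x axis) of the 42 tested genes with its 95% interval from limma, 1 panel per treatment, coloured by gene group; filled points passed the test. Under Glc and ABA + Glc the filled points all lie left of 0, and under ABA 3 lie right of it.

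Measured as summed TPM per library, the gene groups moved to different extents. LHCII showed the deepest drop, from 53.0 to 62.2 TPM in control libraries to 33.4 to 43.1 with Glc, 34.8 to 40.9 with ABA and 26.1 to 33.3 with ABA + Glc, with no overlap with the control. The minor LHCB sum went the other way under ABA, at 83.8 to 98.2 TPM against 75.2 to 79.2 in the control, and most of it was *LHCB4.1*. With Glc the minor LHCB sum was 65.8 to 73.9 TPM, below every control library. With ABA + Glc it was 64.9 to 79.5 TPM and overlapped the control. The LHCA sum was 122.4 to 133.2 TPM in the control, 106.3 to 116.3 with Glc, 109.0 to 115.2 with ABA and 89.0 to 109.6 with ABA + Glc. The PSA sum was 163.6 to 188 TPM in the control, 135.7 to 150.7 with Glc, 124 to 142 with ABA and 126.5 to 151.3 with ABA + Glc. The PSB sum was 778 to 801 TPM in the control, 641 to 669 with Glc, 659 to 734 with ABA and 615 to 664 with ABA + Glc. The RBCS sum, most of it *RBCS1A*, was 2358 to 2407 TPM in the control, 2121 to 2226 with Glc and 2137 to 2342 with ABA. With ABA + Glc the RBCS sum was 2039 to 2511 TPM and spanned the control, with the highest value in the left-out replicate 3. These sums are given without a test.

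**Figure D3:**
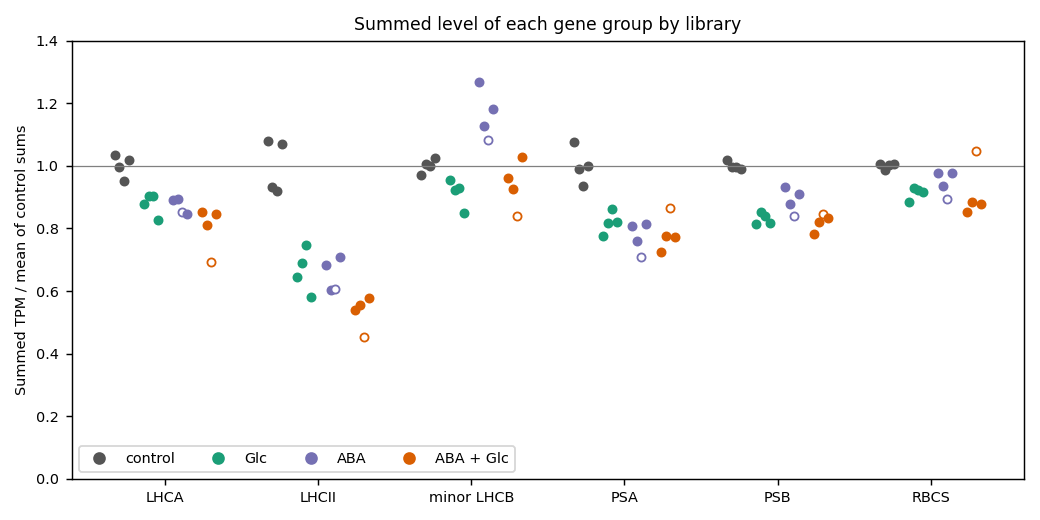
Summed TPM of each gene group in each of the 16 libraries, divided by the mean sum of the 4 control libraries (y axis); colours are treatments and open circles are the 2 libraries the study left out. LHCII lies at 0.452 to 0.748 in all treated libraries, while the minor LHCB sum lies at 1.08 to 1.27 under ABA.

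The Rubisco small subunit genes are *RBCS1A* (AT1G67090), *RBCS1B* (AT5G38430), *RBCS2B* (AT5G38420) and *RBCS3B* (AT5G38410). Falls passed for 3 of the 4 RBCS genes in each treatment, and *RBCS1A* did not pass in any. *RBCS1A* held 2044, 2008, 2057 and 2055 TPM in control replicates 1 to 4 and 1871, 1956, 1941 and 1953 TPM with Glc. With ABA it held 2118, 2029, 1926 and 2111 TPM and with ABA + Glc 1832, 1898, 2300.4 and 1900.5 TPM. Glc and ABA + Glc libraries were slightly below the control apart from ABA + Glc replicate 3, the highest of all 16. Its log2 fold changes were -0.08 (adjusted p = 0.128) with Glc, 0.03 (adjusted p = 0.5) under ABA and -0.12 (adjusted p = 0.0129) under ABA + Glc (limma, Benjamini-Hochberg), all below the minimum fold.

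*RBCS3B*, from a cluster of 3 neighbouring genes on chromosome 5, held 309, 304, 296 and 298 TPM in the control and 221, 234, 227 and 213 TPM with Glc. Under ABA its values were 196, 184, 191 and 197 TPM, and under ABA + Glc 184, 195, 185 and 186 TPM. Every treated library was below every control library, and the 2 left-out libraries lay within the others. The log2 fold change was -0.43 (SE 0.04, adjusted p = 8.23e-06) with Glc, -0.65 (SE 0.04, adjusted p = 3.61e-09) under ABA and -0.68 (SE 0.04, adjusted p = 3.17e-09) under ABA + Glc in limma's test. *RBCS2B*, next to it, held 43.5, 37.9, 40.1 and 40.9 TPM in the control and 24.8, 27.5, 30.4 and 24.9 TPM with Glc. Its values were 23.1, 18.7, 16.5 and 23.3 TPM with ABA and 18.9, 21.4, 22.6 and 15.7 TPM with ABA + Glc, so that all treated libraries lay below the lowest control value of 37.9 TPM. *RBCS1B*, the lowest of the family, held 10.7, 8.09, 9.61 and 12 TPM in the control and 4.66, 8.61, 7.27 and 6.44 TPM with Glc, where the groups overlapped in 1 Glc library; its Glc change of -0.57 (adjusted p = 0.032) did not pass without control replicate 1, 3 or 4 or Glc replicate 1 or 4. Its levels were 4.13, 3.96, 3.41 and 4.22 TPM with ABA and 3.6, 2.96, 3.16 and 3 TPM with ABA + Glc, with no overlap. The changes of *RBCS1B*, -1.19 (SE 0.16, adjusted p = 2.9e-05) under ABA and -1.51 (SE 0.16, adjusted p = 3.33e-06) under ABA + Glc, were the largest falls among the 42 genes in those treatments. Those of *RBCS2B* were -0.59 (SE 0.10, adjusted p = 0.00168) under Glc, -0.89 (SE 0.10, adjusted p = 5.29e-06) under ABA and -1.11 (SE 0.10, adjusted p = 6.9e-07) under ABA + Glc. Summed over the 3 copies, which leaves out how reads were split among them but not with *RBCS1A* (4.5% of its 31-base words shared), the cluster held 346 to 363 TPM in the control and 244 to 270.2 TPM with Glc. The sum fell by 0.45 (SE 0.04, limma adjusted p = 1.28e-05) with Glc, 0.69 (SE 0.04, adjusted p = 5.17e-09) with ABA and 0.74 (SE 0.04, adjusted p = 3.31e-09) with ABA + Glc on the log2 scale.

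The make-up of the RBCS transcript pool differed as well. *RBCS1A* made up 84.9% to 85.6% of it in the control, 87.9% to 88.9% with Glc, 90.2% to 90.8% with ABA and 89.7% to 91.6% with ABA + Glc, so the control share lay below every treated library. On the log2 scale the ratio of *RBCS3B* to *RBCS1A* was -2.76 ± 0.04 (SD, n = 4) in the control, -3.11 ± 0.06 (SD, n = 4) with Glc, -3.41 ± 0.05 (SD, n = 4) with ABA and -3.39 ± 0.16 (SD, n = 4) with ABA + Glc. This ratio was picked with the values known and is a description without a test.

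**Figure D4:**
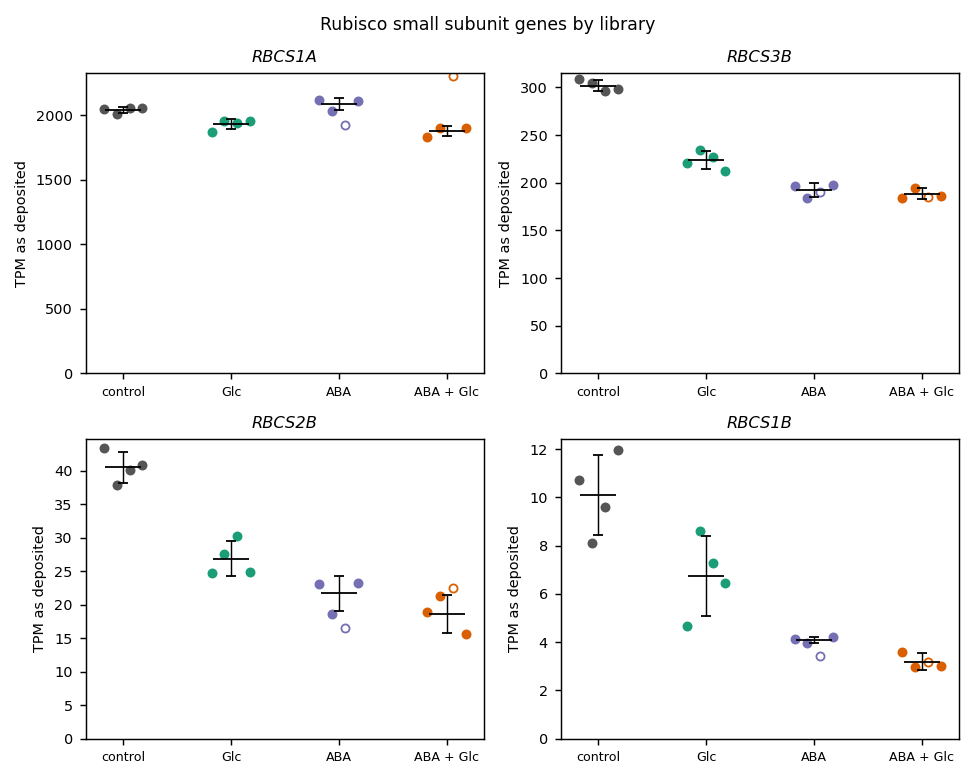
TPM of the 4 RBCS genes (y axes from 0, a scale of its own for each gene) in each library by treatment; filled circles entered the test, open circles are the 2 left-out libraries, and bars are the mean and SD of the filled circles. *RBCS3B* drops from about 302 TPM to 188 TPM with ABA + Glc, while *RBCS1A* stays between 1832 and 2300.4 TPM.

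The antenna of photosystem I is encoded by *LHCA1* (AT3G54890), *LHCA2* (AT3G61470), *LHCA3* (AT1G61520), *LHCA4* (AT3G47470), *LHCA5* (AT1G45474) and *LHCA6* (AT1G19150). Falls passed for 1 of the 6 under Glc, 3 under ABA and 3 under ABA + Glc; 0 rose. *LHCA1*, whose protein binds chlorophyll in the belt of photosystem I, held 9.15, 7.67, 5.65 and 8.39 TPM in the control and 6.1, 6.13, 5.28 and 4.71 TPM with Glc. With ABA it was at 4.39, 3.8, 4 and 3.49 TPM and with ABA + Glc at 5.15, 5.24, 4.58 and 5.34 TPM. All ABA libraries lay below all others. Its log2 change was -0.89 (SE 0.14, adjusted p = 0.000108) under ABA and -0.50 (SE 0.14, adjusted p = 0.0143) under ABA + Glc, and under Glc it was -0.43 (adjusted p = 0.0547), which did not pass (limma). *LHCA2* and *LHCA3*, partners in the same belt, passed with ABA at -0.33 (adjusted p = 0.043) and -0.41 (adjusted p = 0.0283). In ABA + Glc libraries their changes were -0.39 (adjusted p = 0.025) and -0.49 (adjusted p = 0.0165), and *LHCA2* was also lower with Glc, at -0.41 (adjusted p = 0.0321). These calls were close to the threshold: that of *LHCA2* with ABA did not pass without any 1 of 8 libraries, among them ABA replicates 2 and 4, and that of *LHCA3* with ABA did not without control replicate 1, 2 or 4 or ABA replicate 2. With ABA + Glc the call of *LHCA2* ended without control replicate 4 or ABA + Glc replicate 4 and that of *LHCA3* without ABA + Glc replicate 2 or 4, and the Glc call of *LHCA2* ended without control replicate 1, 3 or 4 or Glc replicate 1, 2 or 3.

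The 2 most abundant LHCA genes did not pass in any treatment over the 14 libraries. *LHCA5*, which in Arabidopsis helps link photosystem I to the chloroplast NDH complex, held 52.1, 53.9, 54.6 and 56.6 TPM in the control and 50.3, 51.1, 54.1 and 43.7 TPM with Glc. It held 51.8, 54.3, 48.9 and 46.9 TPM with ABA and 45.1, 46, 35.1 and 51 TPM with ABA + Glc, with ABA + Glc replicate 3 the lowest of the 16. Its change with ABA + Glc was -0.20 (adjusted p = 0.05) over the 14 libraries and -0.30 (adjusted p = 0.0214) over 16, where it passed. *LHCA4* had log2 fold changes of -0.16, -0.13 and -0.21 in the 3 treatments, none past the minimum fold. *LHCA6*, the NDH-linked relative at the low end of the family, was at 1.21, 0.65, 1.49 and 0.9 TPM in the control and 0.61, 0.91, 1.49 and 0.49 TPM with Glc. It was at 1.33, 0.38, 0.56 and 0.61 TPM with ABA and 0.89, 0.83, 0.73 and 0.82 TPM with ABA + Glc. The groups overlapped, and the interval of the ABA difference, -0.92 to 0.25, included 0.

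The LHCII genes are *LHCB1.1* (AT1G29920), *LHCB1.2* (AT1G29910), *LHCB1.3* (AT1G29930), *LHCB1.4* (AT2G34430), *LHCB1.5* (AT2G34420), *LHCB2.1* (AT2G05100), *LHCB2.2* (AT2G05070), *LHCB2.3* (AT3G27690) and *LHCB3* (AT5G54270). All of *LHCB1.3*, *LHCB1.5* and *LHCB3*, 3 of the 4 genes of this group that were tested, fell in each treatment. In detail, *LHCB1.3* held 33, 28.3, 28.5 and 33.3 TPM in the control and 22.3, 22.9, 23.9 and 19.5 TPM with Glc. With ABA it held 24.1, 19.9, 19.4 and 23.4 TPM and with ABA + Glc 17.5, 19, 16.7 and 18.4 TPM. No treated library reached the lowest control value. On the log2 scale it changed by -0.47 (SE 0.08, adjusted p = 0.00217) with Glc, -0.45 (SE 0.08, adjusted p = 0.000645) under ABA and -0.73 (SE 0.08, adjusted p = 7.85e-06) under ABA + Glc (limma). *LHCB3*, whose protein joins LHCB1 and LHCB2 in some of the trimers, was tight in the control at 12.3, 11.2, 11.2 and 11.1 TPM and lower with Glc at 7.03, 5.94, 8.32 and 5.71 TPM. Under ABA it was 5.37, 5.9, 6.25 and 8.36 TPM and under ABA + Glc 6, 4.72, 3.17 and 5.98 TPM, the lowest in the left-out ABA + Glc replicate 3. Its fold relative to the control was 0.6 under Glc, 0.58 under ABA and 0.505 under ABA + Glc. *LHCB1.5* had log2 fold changes of -0.70 (adjusted p = 0.00307), -0.75 (adjusted p = 0.000393) and -0.95 (adjusted p = 6.21e-05) in the same order. The sum of *LHCB1.1* to *LHCB1.3* gave nearly the same changes as *LHCB1.3* alone, -0.47, -0.44 and -0.70, all past limma's test. *LHCB1.2*, at 0.77 to 2.42 TPM, overlapped between all groups. *LHCB1.1* was not tested; it was at 0.48 to 0.65 TPM in the control and at 0 to 0.34 TPM in the 12 treated libraries, without overlap, but under the filter. The sum of the 3 *LHCB2* genes was at most 0.55 TPM in any library.

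The minor antenna genes of photosystem II are *LHCB4.1* (AT5G01530), *LHCB4.2* (AT3G08940), *LHCB4.3* (AT2G40100), *LHCB5* (AT4G10340), *LHCB6* (AT1G15820) and *LHCB7* (AT1G76570). This group split under ABA, with 2 falls and 2 rises among 6 genes. *LHCB4.1*, which encodes the CP29 protein between core and trimers, held 39.8, 39.5, 38 and 38.8 TPM in the control and 39.8, 38.6, 37 and 35.5 TPM with Glc. With ABA its level was 61.3, 55.6, 52.4 and 55.8 TPM, above every other library, and with ABA + Glc 44, 44.3, 43.1 and 45.8 TPM, between the control and ABA without overlap with either. The rise with ABA was 1.47-fold, log2 0.56 (SE 0.05, adjusted p = 2.69e-07), and leaving out any 1 library kept it between 0.51 and 0.58. With ABA + Glc the change of 0.19 (adjusted p = 0.00806) was under the minimum fold (limma). *LHCB4.2*, a second CP29 gene, held 5.77, 7.02, 7.31 and 7.63 TPM in the control, 9.06, 7.48, 8.05 and 9.18 TPM with ABA and 5.92, 6.95, 3.79 and 6.58 TPM with ABA + Glc. Its ABA values overlapped the control at 7.48 TPM, and its rise of 0.29 (SE 0.10, adjusted p = 0.0353) lay just past the minimum and did not pass over all 16 libraries (0.27, adjusted p = 0.161) or without control replicate 1 or 2 or ABA replicate 1 or 4, nor once libraries were scaled to equal sums. With Glc *LHCB4.2* was at 5.72, 5.48, 5.53 and 5.76 TPM, a change of -0.27 (adjusted p = 0.0919). *LHCB5* (CP26) and *LHCB6* (CP24) fell with ABA, at -0.46 (SE 0.10, adjusted p = 0.00244) and -0.67 (SE 0.17, adjusted p = 0.00548). Under ABA + Glc the values were -0.31 (SE 0.10, adjusted p = 0.0376) and -0.80 (SE 0.17, adjusted p = 0.00223), and that of *LHCB5* did not pass without control replicate 1, 2 or 4 or ABA + Glc replicate 1 or 2. With Glc *LHCB5* was at 11.4 ± 0.364 TPM (SD, n = 4) against 11.1 ± 1.31 TPM (SD, n = 4) in the control, a log2 difference with an interval of -0.16 to 0.25. *LHCB7*, the lowest of the group on average, was at 4.27, 3.74, 5.97 and 3.56 TPM in the control, 4.36, 4.73, 4.23 and 3.72 TPM with Glc, 5.24, 6.46, 5.7 and 4.78 TPM with ABA and 4.23, 2.82, 3.35 and 5.16 TPM with ABA + Glc, and its groups overlapped. *LHCB4.3* passed in no treatment, with changes of -0.36, 0.03 and -0.19.

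The photosystem I subunit genes are *PSAD1* (AT4G02770), *PSAD2* (AT1G03130), *PSAE1* (AT4G28750), *PSAE2* (AT2G20260), *PSAF* (AT1G31330), *PSAG* (AT1G55670), *PSAH1* (AT3G16140), *PSAH2* (AT1G52230), *PSAK* (AT1G30380), *PSAL* (AT4G12800), *PSAN* (AT5G64040) and *PSAO* (AT1G08380). Of 12 PSA genes 2 were lower under Glc, 4 under ABA and 5 under ABA + Glc by the test, and 1 was higher under ABA. *PSAD1* and *PSAE2* encode subunits on the stromal side where ferredoxin docks. *PSAD1* fell with Glc at -0.37 (adjusted p = 0.012), under ABA at -0.49 (adjusted p = 0.000418) and under ABA + Glc at -0.45 (adjusted p = 0.00122). *PSAE2* passed with ABA + Glc (-0.58, adjusted p = 0.00699) and, over all 16 libraries, with ABA (-0.37, adjusted p = 0.0457). Its other copy *PSAE1* passed with ABA (-0.30, adjusted p = 0.0278), but not without control replicate 1 or 2 or ABA replicate 2 or 4. *PSAF*, whose protein takes part in plastocyanin binding in green algae, was the most abundant PSA gene on average. It held 49.7, 48.1, 47.1 and 45.9 TPM in the control and 36, 42.2, 45.8 and 41.2 TPM with Glc. With ABA it held 37.7, 37.5, 34.7 and 39.1 TPM and with ABA + Glc 37.2, 40.1, 45.7 and 38.1 TPM. ABA libraries lay wholly below the control, and its change was -0.32 (SE 0.06, adjusted p = 0.000997) under ABA and -0.31 (SE 0.06, adjusted p = 0.00206) under ABA + Glc, the latter -0.25 (adjusted p = 0.0205) over 16 libraries, under the minimum, as it also was without control replicate 1 or ABA + Glc replicate 1.

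*PSAG* and *PSAK* encode related subunits that face the LHCA belt. *PSAG* held 15, 14.1, 14.1 and 13.7 TPM in the control, 12.2, 7.91, 13.4 and 8.55 TPM with Glc, 10.4, 11.3, 8.29 and 12 TPM with ABA and 11, 6.94, 5.09 and 5.98 TPM with ABA + Glc. Its control libraries lay close together and above all 12 others, and the ABA + Glc change passed (-0.84, SE 0.18, adjusted p = 0.00268). *PSAG* overlaps another gene on the opposite strand over 479 bases. That gene, AT1G55673, held 8.1 TPM on average in the control. *PSAK* fell in all treatments, at -0.73 (SE 0.21, adjusted p = 0.046) with Glc, -0.82 (SE 0.23, adjusted p = 0.0106) under ABA and -0.90 (SE 0.23, adjusted p = 0.00789) under ABA + Glc; the call with Glc ended over 16 libraries and without any 1 of 10 libraries, the 4 controls among them, and that with ABA + Glc without ABA + Glc replicate 2. *PSAH1*, the least abundant PSA gene, encodes a subunit at the site where LHCII binds photosystem I. It was at 1.35, 1.69, 1.31 and 2.21 TPM in the control and 1.7, 1.66, 1.95 and 1.72 TPM with Glc. With ABA it was at 2.58, 2.15, 2.52 and 2.9 TPM and with ABA + Glc at 1.65, 1.77, 2.09 and 1.26 TPM. ABA values overlapped the control at 2.21 TPM, and the rise of 0.52 (SE 0.16, adjusted p = 0.0186) did not pass without control replicate 1 or 3 or ABA replicate 1 or 4. The gene that overlaps *PSAH1* on the other strand, AT3G16130, was listed at 0 in all 16 libraries. In limma's test such neighbours of *LHCB1.3* and *LHCB1.5*, AT1G29940 and AT2G34410, were lower with ABA, at -0.23 (adjusted p = 0.0095) and -0.24 (adjusted p = 0.0272). So was AT1G15810, which overlaps *LHCB6*, at -0.24 (adjusted p = 0.00276), each under the minimum fold. That of *LHCB3*, AT5G54280, was at 0.14 (adjusted p = 0.375). With Glc AT1G06690, which overlaps *PSBP1*, was at -0.37 (adjusted p = 0.0215). Whether neighbours add to the calls was not tested. *PSAH2*, *PSAL*, *PSAN*, *PSAO* and *PSAD2* passed in no treatment.

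The photosystem II subunit genes are *PSBO1* (AT5G66570), *PSBO2* (AT3G50820), *PSBP1* (AT1G06680), *PSBQA* (AT4G21280), *PSBQ2* (AT4G05180), *PSBR* (AT1G79040), *PSBS* (AT1G44575), *PSBW* (AT2G30570), *PSBX* (AT2G06520) and *PSBY* (AT1G67740). Falls passed for 4 of the 10 PSB genes under Glc, 3 under ABA and 4 under ABA + Glc; 0 rose. *PSBQA*, *PSBO1*, *PSBO2* and *PSBP1* encode the proteins on the lumenal side that shield the manganese cluster where water is split. *PSBQA* held 83.4, 83.7, 87.6 and 80.2 TPM in the control, 66.7, 69.5, 71.4 and 58.6 TPM with Glc, 56.6, 55.2, 54.4 and 59.7 TPM with ABA and 48.4, 54.4, 39 and 59.4 TPM with ABA + Glc. Every treated library was below every control library, and its change was -0.33 (SE 0.07, adjusted p = 0.00624) with Glc, -0.55 (SE 0.07, adjusted p = 1.82e-05) under ABA and -0.63 (SE 0.07, adjusted p = 5.86e-06) under ABA + Glc (limma); the Glc call did not pass without Glc replicate 4, where the change was -0.27. *PSBO2* showed another pattern. Its levels were 12.6, 15.1, 13.9 and 12.5 TPM in the control, 10.4, 9.83, 9.12 and 10.4 TPM with Glc, 16.4, 17.5, 13.3 and 12.9 TPM with ABA and 10.4, 11.2, 7.28 and 11.7 TPM with ABA + Glc. Glc libraries lay below the control and ABA libraries overlapped it, with a change of -0.42 (SE 0.09, adjusted p = 0.0105) with Glc and 0.19 (adjusted p = 0.139) with ABA. With ABA + Glc its change was -0.27 (adjusted p = 0.0537) and passed over all 16 libraries, at -0.42 (adjusted p = 0.0234). *PSBO1* passed with ABA + Glc (-0.39, adjusted p = 0.000674). *PSBP1* had adjusted p under 0.05 in each treatment, but its changes of -0.24, -0.18 and -0.25 stayed under the minimum fold; over all 16 libraries it passed with ABA + Glc (-0.29, adjusted p = 0.00151).

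*PSBS*, which triggers the dissipation of excess light as heat, fell in all treatments, at -0.34 (adjusted p = 0.0213), -0.37 (adjusted p = 0.0049) and -0.45 (adjusted p = 0.00143). The call under Glc did not pass without control replicate 1 or Glc replicate 1, nor that under ABA without control replicate 1 or ABA replicate 2. *PSBY*, a small membrane subunit, fell under ABA (-0.46, adjusted p = 3.21e-05) and under ABA + Glc (-0.42, adjusted p = 0.000104). Over 16 libraries the latter was -0.23 (adjusted p = 0.225), where ABA + Glc replicate 3 held 103 TPM against 55.7 to 65.3 in the other 3. *PSBX* fell with Glc (-0.34, adjusted p = 0.00122), a call that ended without Glc replicate 4 (-0.28) and over 16 libraries, while with ABA + Glc its change of -0.29 was just short of the minimum fold and passed in other settings, among them all 16 libraries (-0.41, adjusted p = 0.00316). *PSBR*, the most abundant PSB gene averaged over the libraries, held 175, 179, 169 and 175 TPM in the control and 138, 157, 153 and 159 TPM with Glc. With ABA it held 204, 173, 168 and 195 TPM and with ABA + Glc 154, 152, 216 and 161 TPM. Its ABA libraries spread around the control, ABA + Glc replicate 3 was the highest of 16, and no change passed. *PSBQ2*, at the low end, was at 1.45, 0.71, 1.17 and 0.63 TPM in the control, 0.22, 0.6, 0.61 and 0.97 TPM with Glc, 0.94, 1.35, 0.97 and 1.08 TPM with ABA and 0.22, 1.04, 0.23 and 0.45 TPM with ABA + Glc, and the interval of its ABA difference was -0.46 to 0.76. *PSBW* had its largest change with Glc, -0.28 (adjusted p = 0.0104), just under the minimum fold.

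**Figure D5:**
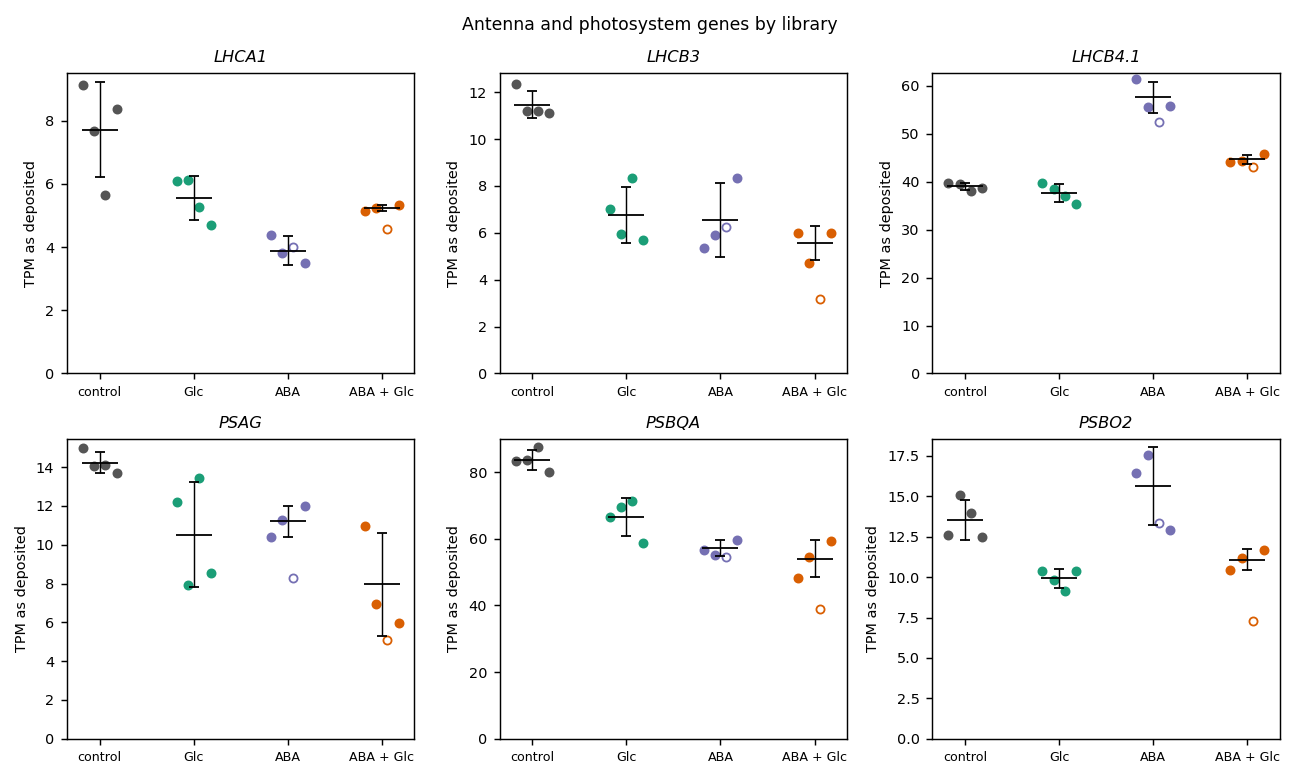
TPM of 6 antenna and photosystem genes (y axes from 0, a scale of its own for each gene) in each library by treatment; filled circles entered the test, open circles are the 2 left-out libraries, and bars are the mean and SD of the filled circles. *LHCB4.1* is highest under ABA at 52.4 to 61.3 TPM and *LHCA1* is lowest there at 3.49 to 4.39 TPM.

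Did adding Glc to ABA change what ABA did? Between ABA + Glc and ABA 3 of the 42 genes changed, all downward, where 2.65% of all tested genes changed in either direction. The log2 differences were -0.36 (SE 0.05, adjusted p = 0.00121) for *LHCB4.1*, -0.47 (SE 0.10, adjusted p = 0.0219) for *PSBO2* and -0.31 (SE 0.08, adjusted p = 0.0349) for *PSBO1* (limma, Benjamini-Hochberg). The *PSBO1* call ended over all 16 libraries (-0.22, adjusted p = 0.136) and without ABA replicate 1, 2 or 4 or ABA + Glc replicate 1 or 2. The *PSBO2* call ended without ABA replicate 1 or 2 or ABA + Glc replicate 1 or 2, with changes between -0.59 and -0.38 over all single omissions, and *LHCB4.2*, at -0.37 (adjusted p = 0.074), passed over all 16 libraries (-0.53, adjusted p = 0.0412) and without control replicate 1 or ABA replicate 2. Of the genes that ABA lowered, 0 were higher with ABA + Glc by this test, and 1 (*LHCA1*) was at an unadjusted p under 0.05. The difference between ABA + Glc and ABA was -0.03 for *RBCS3B*, with an interval of -0.12 to 0.06, and -0.20 for *LHCB3*, with an interval of -0.53 to 0.13. For *LHCA1* it was 0.39 with an interval of 0.08 to 0.70, upward but not past the test (adjusted p = 0.198).

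The Glc effect in the presence of ABA minus that in its absence, an interaction on the log2 scale, passed for 3 of the 42 genes, where 3.73% of all tested genes passed in either direction. For *RBCS3B* it was 0.40 (SE 0.06, adjusted p = 0.000712), with -0.43 for Glc alone and -0.03 on top of ABA. *LHCA1* gave 0.82 (SE 0.19, adjusted p = 0.0258), with -0.43 for Glc alone and 0.39 on top of ABA. In *LHCB4.1* the sign was opposite, -0.31 (SE 0.07, adjusted p = 0.0181), with -0.05 for Glc alone and -0.36 on top of ABA. The *RBCS3B* value held without any 1 library, at 0.37 to 0.42. That of *LHCA1* did not pass without ABA replicate 2 or 4 or without ABA + Glc replicate 1, 2 or 4, and that of *LHCB4.1* did not without Glc replicate 1, ABA replicate 1 or ABA + Glc replicate 1. *PSAD1*, at 0.41 (adjusted p = 0.0817), passed over all 16 libraries (0.52, adjusted p = 0.0438) and without Glc replicate 4. Of the 42 interaction values 31 were above 0 and 11 below, with a median of 0.17, against 0.00 over all genes tested.

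Some subunits are encoded by pairs of genes, and for 6 such pairs the log2 ratio of the copies was compared with the control over all 16 libraries by an exact two-sided permutation test, in 18 comparisons added after the values were known. The smallest p that 4 against 4 libraries allow is 0.0286. That p was reached once, by *PSBQA* to *PSBQ2* under ABA, with a difference in log2 ratio of -0.68 (exact permutation p = 0.0286, adjusted p = 0.22). *LHCB4.1* to *LHCB4.2* differed from the control by 0.22 under Glc, 0.25 under ABA and 0.44 under ABA + Glc, the last with an exact permutation p of 0.0571. *PSAH1* to *PSAH2* differed by 0.73 under ABA and *PSBO1* to *PSBO2* by 0.27 with Glc (exact permutation p = 0.0571 for each). The smallest adjusted p was 0.22. Over 18 comparisons a single pair cannot pass after adjustment at this number of libraries, however large its difference, so these tests do not show whether copies responded alike or differently.

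Other nuclear genes of photosynthesis, from lists chosen alongside, are set beside the shares of all tested genes given above. Of 16 Calvin cycle genes 0 passed with Glc (limma; 4 lower and 2 higher at an unadjusted p under 0.05), 3 fell and 3 rose with ABA, against 13.3% and 10.4% of all tested genes, and 5 fell with ABA + Glc, against 10.1%. The ABA counts are near those shares, and nothing particular to the list is read from them. *PRK*, which makes the CO2 acceptor of Rubisco, fell under ABA (-0.45, adjusted p = 0.00197) and under ABA + Glc (-0.56, adjusted p = 0.000496). *RCA*, the Rubisco activase, fell with ABA + Glc (-0.56, adjusted p = 4.28e-06), as did *CP12-2*, which binds Calvin cycle enzymes, at -0.52 (adjusted p = 0.0455). Over 16 libraries *CP12-2* had -0.42 (adjusted p = 0.0748). *CFBP1*, the chloroplast fructose bisphosphatase, rose with ABA (0.44, adjusted p = 0.000698). *GAPA2* had -0.42 (adjusted p = 0.000862) with ABA. Of all tested genes 2.95% fell under Glc, 13.3% under ABA and 10.1% under ABA + Glc. Of 12 tested electron transport and ATP synthase genes, falls passed for 1 under Glc, 4 under ABA and 6 under ABA + Glc, and 0 rose. These include *ATPD*, a subunit of the chloroplast ATP synthase, at -0.31 (adjusted p = 0.000521) under Glc and -0.37 (adjusted p = 1.72e-05) under ABA. *FNR1*, which passes electrons from ferredoxin to NADP, was at -0.34 (adjusted p = 0.00133) under ABA and -0.36 (adjusted p = 0.00112) under ABA + Glc, and *FD1*, a ferredoxin, at -0.31 (adjusted p = 2.02e-05) under ABA. *ATPC1*, the gamma subunit of the ATP synthase, had -0.36 (adjusted p = 4.71e-06) and *FD1* -0.33 (adjusted p = 1.5e-05) with ABA + Glc, where 3 of the 12 passed over all 16 libraries. Of 4 genes for import and insertion of antenna proteins, 1 fell with ABA, against 13.3% of all tested genes. This was *CPSRP43*, a subunit of the chloroplast signal recognition particle that carries LHC proteins to the membrane (-0.31, limma adjusted p = 0.000443).

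Among 13 regulators 0 passed with Glc (limma, with 3 lower and 2 higher at an unadjusted p under 0.05). With ABA 4 fell and with ABA + Glc 3, against 13.3% and 10.1% of all tested genes. Nothing particular to the list is read from counts this small. The largest fall with ABA was that of *ABI4*, a transcription factor known for ABA and sugar responses of seeds, at -0.62 (adjusted p = 8.28e-08). It was followed by *CGA1*, a GATA factor that promotes greening, at -0.45 (adjusted p = 0.000321), and *HYH*, a bZIP factor of light responses, at -0.39 (adjusted p = 0.00325). With ABA + Glc the changes were -0.38 (adjusted p = 0.00196) for *CGA1*, -0.37 (adjusted p = 0.00573) for *HYH* and -0.34 (adjusted p = 9.04e-05) for *ABI4*. Over all 16 libraries only *CGA1* of these 3 passed with ABA + Glc. The interaction value of *ABI4* was 0.40 (adjusted p = 0.00373), that of *ATPD* 0.38 (adjusted p = 0.00373) and that of *CPSRP43* 0.34 (adjusted p = 0.0223) in limma's test. These were above 0, as for *RBCS3B* and *LHCA1*, whereas that of *LHCB4.1* was -0.31. Over all genes tested 313 interaction values passed above 0 and 340 below, and no shared pattern is read from these signs.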

How the data were processed

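Groups and replicate numbers follow the labels. Reads were trimmed by the authors (Trimmomatic 0.38) and assigned to primary transcripts (kallisto 0.44.0, then sleuth); each deposited score is 1 value per gene under the header TPM, and the sources used here do not state how libraries were scaled. The labels and the study name different sequencers. Here, genes over 0.5 TPM in at least 50% of libraries were fitted with limma 3.58.1 (R 4.3.3) on log2(TPM + 0.5), with 1 mean per group and a trended prior variance, over the 14 libraries the study kept. The call needed an adjusted p under 0.05 and 0.289 on the log2 scale, the study's minimum of 0.2 in natural log units. Exact permutation tests used scipy 1.17.1. Genes are named by a rule: every one of the 47, and up to 3 passing genes per contrast of each other list. The 47 genes and all lists were chosen with earlier results of these data known. Alternatives were other libraries, pseudocounts, filters, scaling, variance prior, groups in the fit, fold minimum, summed copies, a replicate block and each library left out.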

Additional observations from a re-analysis of the deposited data

Results flagged for a closer look

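Of the 168 sets of 4 libraries examined (42 genes in 4 treatments), 11 (6.5%) held a library far from the other 3 by Dixon's test at 95%, which chance gives in about 5%. Of these, 4 were ABA + Glc replicate 3, a library the study left out. There *RBCS1A* was at 2300.4 TPM against 1832 to 1900.5 in the others, *PSBR* at 216 TPM against 152 to 161, *PSAD2* at 19.7 TPM against 10.5 to 11.5, and *PSBX* at 107 TPM against 148 to 152. Another 3 were in control libraries: *LHCB3* at 12.3 TPM in control replicate 1 against 11.1 to 11.2, *PSAH2* at 4.39 TPM in control replicate 1 against 2.50 to 2.65, and *LHCA3* at 8.27 TPM in control replicate 3 against 11.4 to 11.8. In the other treated libraries *LHCA2* was at 3.75 TPM in Glc replicate 4 against 3.25 to 3.33 and *PSAH2* at 1.64 TPM in ABA replicate 4 against 2.74 to 2.94. *PSAK* was at 2.51 TPM in ABA + Glc replicate 1 against 1.00 to 1.22, and *RBCS3B* at 194.8 TPM in ABA + Glc replicate 2 against 184 to 186.

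For 3 genes the Glc effect differed with and without ABA by limma's interaction term, on the log2 scale: *LHCA1* by 0.82, *RBCS3B* by 0.40 and *LHCB4.1* by -0.31.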

How the results depend on the processing

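No gene of the 47 that passed changed direction under any alternative, and 37 of 60 passing results passed in every alternative that tested the gene (a filter of 10 TPM leaves many out); 21 did not pass without some single library. Over all 16 libraries 8 genes were lower under Glc. A filter of 10 TPM, which tests fewer genes, left 8 falls under Glc, 10 under ABA and 11 under ABA + Glc, and 1 rise under ABA. Without a minimum fold 1 rose with ABA + Glc and 5 changed between ABA + Glc and ABA; fitted on those groups alone, 1 changed, and that fit gives no interaction. Leaving out each library gave 9 to 14 falls under Glc, 14 to 18 under ABA, 18 to 21 under ABA + Glc, 1 to 3 rises under ABA, 1 to 4 changes between ABA + Glc and ABA and 1 to 4 interactions. The lowest values were 1 rise under ABA without control replicate 1 or ABA replicate 1, 1 change between ABA + Glc and ABA without ABA replicate 1 or ABA + Glc replicate 2, and 1 interaction without ABA + Glc replicate 1. Scaling to equal sums moved the median of all genes by less than 0.1 in each contrast and gave 11, 19 and 22 falls and 2 rises under ABA. Same-numbered libraries did not deviate together (correlations -0.06 to 0.12, median 0.01, with 4 of 14 libraries closest to their own number). A replicate block gave 11 falls under Glc, 17 under ABA, 19 under ABA + Glc and 3 rises under ABA. Without counts, depth and counting error are unknown.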
